A study of Homo sapiens with 18 samples.

Results

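The S100 family was followed through 10 genes, S100A2, S100A4, S100A6, S100A7, S100A8, S100A9, S100A10, S100A14, S100A16 and S100P, chosen by symbol and found among 35933 genes with values. S100 proteins are small calcium sensors built around EF-hand motifs, and most of them work as dimers that bind and regulate other proteins once calcium is bound. Some act inside the cell on the cytoskeleton or on annexins at the plasma membrane, while others are released and bind receptors such as RAGE (AGER) and TLR4. Most S100 genes lie in a cluster on chromosome 1 beside the genes of the cornified envelope. In breast epithelium the family is known for S100A2 as a basal gene and p63 target, for S100A4 as a gene of motile and mesenchymal cells, and for S100A7, S100A8 and S100A9 as genes that inflammation and stress switch on.

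The libraries came from 3 human breast epithelial lines of a common origin. MCF10A is immortalized and not tumorigenic, MCF10AT1 is MCF10A with a stably integrated mutated HRas, and MCF10CA1h was raised from MCF10AT1 through serial xenografts in mice. In each line, cells were given an all-in-one CRISPR/Cas9 construct against exon 1 of METTL3 (the catalytic subunit of the m6A writer complex). They were compared with cells given a control sgRNA construct, 3 libraries of each, or 18 in all. All groups were grown in the same medium, with horse serum, insulin, hydrocortisone, cholera toxin and EGF, and all passed through sorting for mCherry and single-cell cloning. A group is thus 1 clonal line of which 3 replicates were sequenced, and differences between clones, which the spread between replicates does not hold, cannot be told apart from the effect of the CRISPR target. The p-values below measure the spread between these replicates, which nothing says were separate cultures.

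Values are DESeq2-normalized counts as deposited, and the depth behind a single gene is unknown. They summed to between 2.13e+07 and 3.17e+07 per library. METTL3 RNA in the CRISPR libraries stood at 128% of the control mean in MCF10A (510 to 981 against 459 to 752), at 88.5% in MCF10AT1 (752 to 902 against 805 to 1016) and at 70.8% in MCF10CA1h (745 to 843 against 1022 to 1280), with two-sided exact permutation p = 0.3, 0.3 and 0.1, where 0.1 is the smallest p that 3 against 3 can give. In the limma fit described below METTL3 passed in MCF10CA1h alone (adjusted p = 0.0234). An exon 1 edit need not change the RNA level, so METTL3 RNA checks the labels only in part. Epithelial identity was checked with EPCAM, CDH1, ESRP1, GRHL2 and CLDN4. Their summed normalized counts ranged from 6242 to 30552 in the 5 other groups, but from 123 to 310 in the METTL3 CRISPR libraries of MCF10AT1, where all 5 genes were lower (adjusted p under the threshold of 0.05, limma). Of the 5, EPCAM and CLDN4 kept a mean of at least 50 in that group, so the labelled epithelial type was there short of most of its defining RNAs.

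**Figure D1:**
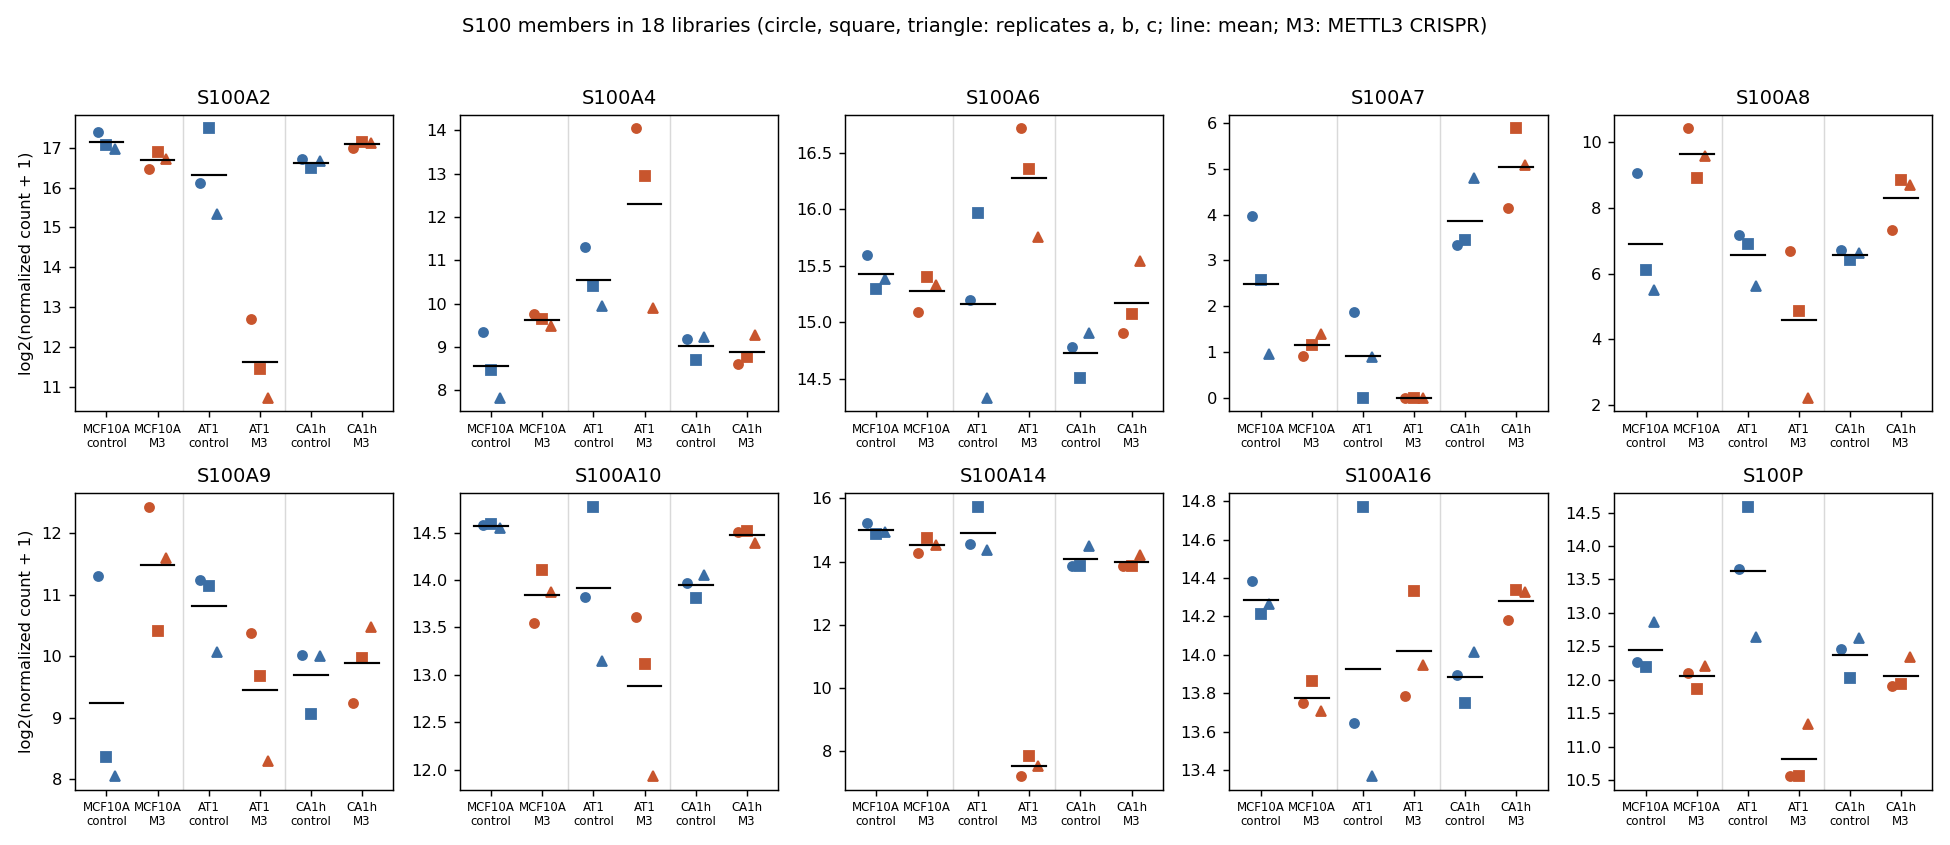
Normalized counts of the 10 members in each library, as log2(normalized count + 1) on the vertical axis (a scale of its own in each panel), with the 6 groups on the horizontal axis, control libraries in blue, METTL3 CRISPR libraries in orange and the mean as a black line. S100A14 fell from between 20972 and 54631 to between 147 and 229 in MCF10AT1, and its values in the other lines lay between 14724 and 37962.

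The members that differed between the METTL3 CRISPR line and its control were not the same in the 3 cell lines. In MCF10AT1, 3 of the 9 members tested passed and all were lower (S100A2, S100A14 and S100P), where 13% of all genes tested passed, 7.07% higher and 5.96% lower. In MCF10CA1h, 4 of 10 passed and all were higher (S100A2, S100A8, S100A10 and S100A16), against 12.8% of all genes, 7.91% higher and 4.85% lower. In MCF10A, none of 9 passed, against 2.65% of all genes, 1.16% higher and 1.49% lower. An unadjusted p under 0.05 was reached there by 6 of the 9 members and by 2839 of 15416 genes. The members tested had a median log2 fold change of -0.38 (MCF10A), -1.36 (MCF10AT1) and 0.42 (MCF10CA1h), beside -0.0035, 0.021 and -0.019 for all genes tested. Tests were made with limma on log2(normalized count + 1) over genes with a mean of at least 10, a filter that S100A7 passed in MCF10CA1h but not in the other lines.

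In MCF10A and MCF10AT1, same-lettered replicates deviated together, and a fit with the letter as a block called more members. The letters paired the MCF10AT1 libraries only in part. There control b and CRISPR a correlated at 0.251, above the pair of letter a at 0.11, and the other unlike-lettered pairs lay between -0.413 and 0.0143. In MCF10A it called 4, with S100A4, S100A8 and S100A9 higher (adjusted p = 0.0364, 0.0111 and 0.0137, limma) and S100A10 lower (adjusted p = 0.0248). In MCF10AT1 it called 8, with S100A4 and S100A6 higher and all others tested but S100A16 lower. For all genes the block raised the calls to 1172 in MCF10A and 3939 in MCF10AT1. In MCF10CA1h the members' calls were lost in the fit of all 18 libraries together and in the fit without the filter on low values (0 of 10 in both), and without that filter 1 of 10 members was called in MCF10AT1. For all genes, 248 of 15897 and 606 of 35933 passed in these MCF10CA1h fits, and 1399 of 35933 in MCF10AT1. The fit of all 18 libraries takes each gene's spread from all lines together, not from MCF10CA1h alone.

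**Figure D2:**
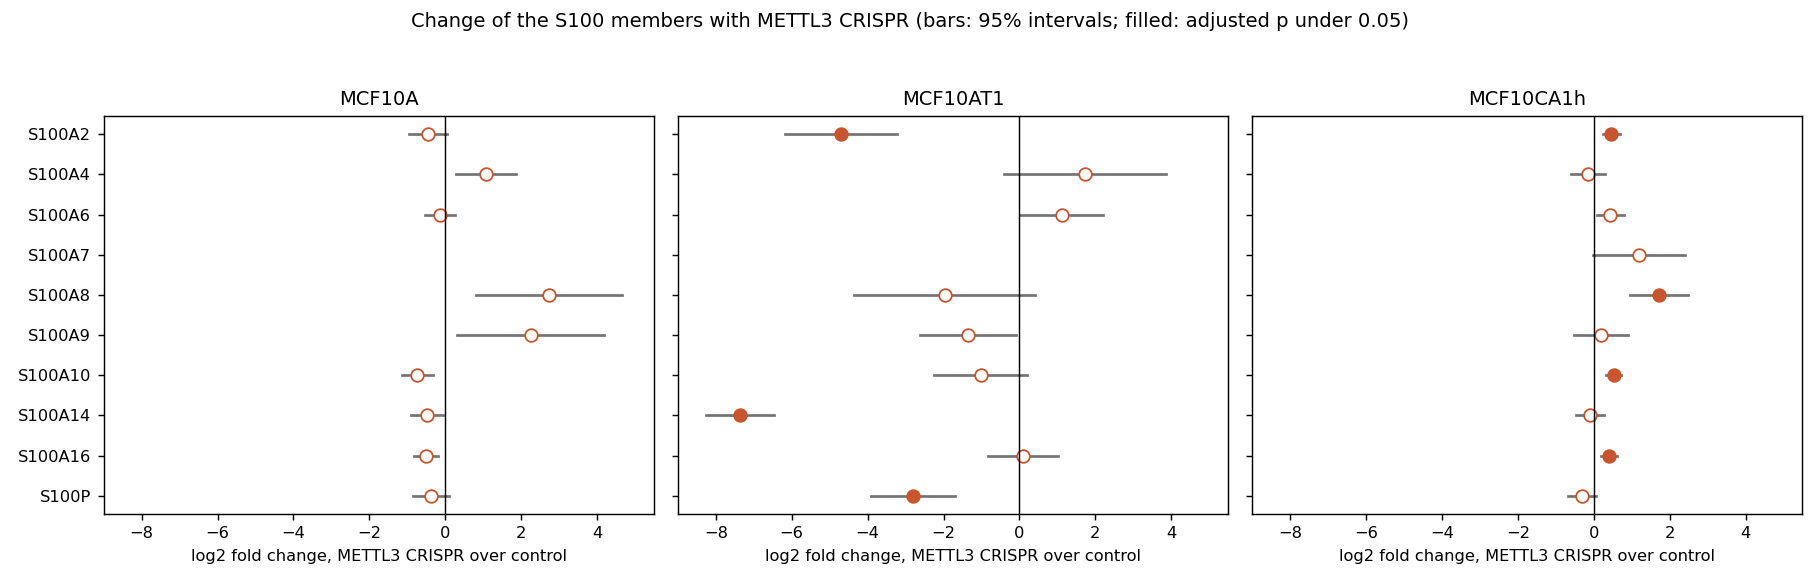
Log2 fold change of each member between METTL3 CRISPR and control libraries (horizontal axis, on the log2(normalized count + 1) scale), with 95% intervals from limma and filled points where the adjusted p was under 0.05. In MCF10AT1 the values of S100A14, S100A2 and S100P were -7.36, -4.70 and -2.81, and those of the 4 called members of MCF10CA1h lay between 0.40 and 1.72.

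S100A14, a membrane-associated S100 protein of epithelia, gave the largest change of the members. In MCF10AT1 its normalized counts were 24330, 54631 and 20972 in the control libraries and 147, 229 and 183 in the METTL3 CRISPR libraries. The groups lay far apart. The difference was 164-fold (log2 fold change -7.36, SE 0.40, adjusted p = 3.16e-05, limma). In MCF10A the counts were 37962, 29983 and 30971 in the control and 19738, 27334 and 23599 in the CRISPR libraries. These groups did not overlap either, but the difference did not pass (log2 fold change -0.49, SE 0.18, adjusted p = 0.208). In MCF10CA1h the 3 control libraries (14839, 14759 and 23070) and the 3 CRISPR libraries (14724, 14929 and 18808) overlapped.

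S100A2, the basal member that p63 is known to induce, was also lower in the same libraries. Its normalized counts in MCF10AT1 were 71052, 184097 and 41162 in the control and 6596, 2778 and 1684 in the CRISPR libraries. The lowest control library was above the highest CRISPR library, and the difference was 25.9-fold (log2 fold change -4.70, SE 0.64, adjusted p = 0.0022, limma). In MCF10CA1h the direction was the other one, with 108022, 91746 and 104877 in the control and 130542, 144607 and 143645 in the CRISPR libraries, a rise of 1.38-fold without overlap (log2 fold change 0.46, SE 0.10, adjusted p = 0.0148). Without MCF10CA1h CRISPR replicate b that call was lost at a log2 fold change of 0.43. In MCF10A the control libraries held 171989, 137582 and 128778 and the CRISPR libraries 91087, 122139 and 108010, without overlap, but the difference did not pass (log2 fold change -0.45, SE 0.22, adjusted p = 0.32).

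S100P, the member coded on chromosome 4 and first described in placenta, fell with them in MCF10AT1. Its normalized counts were 12942, 24630 and 6382 in the control and 1521, 1513 and 2585 in the CRISPR libraries, again without overlap. The difference was 6.99-fold (log2 fold change -2.81, SE 0.49, adjusted p = 0.0069, limma). In MCF10A (4946, 4694 and 7497 against 4421, 3738 and 4734) and in MCF10CA1h (5636, 4165 and 6320 against 3831, 3928 and 5207) the groups overlapped and the log2 fold changes were -0.38 (SE 0.21) and -0.31 (SE 0.16).

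The promoters of these 3 genes are shown because they are the members that fell together. The sequences are RefSeq windows of GRCh38.p14, written 5′ to 3′ on the strand of the gene and ending at the base before its RefSeq start, and matched by symbol for all 10 members. They are chr1:153565845-153566094 (minus strand) for S100A2, chr1:153616356-153616575 (minus strand) for S100A14 and chr4:6693628-6693877 (plus strand) for S100P. The RefSeq starts of S100A2 and S100A14 lie inside the longer spans that GENCODE gives these genes, so these windows lie within the GENCODE genes and not before them. The last 30 bases of the S100A14 window, which another transcript of that gene carries as UTR, are left out. Capitals mark matches, on either strand, to the AP-1 site TGANTCA, the TATA box TATAAA, the C/EBP site TTNNGCAA or the CAGGTG E-box of ZEB and SNAI factors.
S100A2: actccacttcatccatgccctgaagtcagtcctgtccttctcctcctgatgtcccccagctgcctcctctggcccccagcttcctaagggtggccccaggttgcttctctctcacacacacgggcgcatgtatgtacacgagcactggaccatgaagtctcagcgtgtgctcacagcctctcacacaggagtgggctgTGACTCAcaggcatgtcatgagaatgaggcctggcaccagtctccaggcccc
S100A14: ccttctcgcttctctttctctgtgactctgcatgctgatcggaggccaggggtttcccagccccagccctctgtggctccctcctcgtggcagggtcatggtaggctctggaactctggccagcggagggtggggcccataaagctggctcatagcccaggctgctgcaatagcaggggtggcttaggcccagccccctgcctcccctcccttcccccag
S100P: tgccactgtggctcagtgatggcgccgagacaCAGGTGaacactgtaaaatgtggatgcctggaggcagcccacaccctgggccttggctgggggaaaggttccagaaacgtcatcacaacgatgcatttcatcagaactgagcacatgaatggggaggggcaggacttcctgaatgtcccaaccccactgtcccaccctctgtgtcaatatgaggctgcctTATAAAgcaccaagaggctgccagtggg

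S100A2 held an AP-1 match 52 bases before its start and no E-box, and S100P held a TATA box at 28 and an E-box at 218 bases before its start. The E-box of S100A14 lay 14 bases before its start, in the stretch left out. Over windows of 250 bases, the CAGGTG E-box stood in 7 of the 10 members' promoters and in 17.5% of 27305 RefSeq promoters, and the TATA box in 4 of 10 (S100A4, S100A7, S100A9 and S100P) and in 11.1%. The AP-1 site stood in 1 of 10 and in 6.60% of all, and the C/EBP site in 0 of 10 and in 9.13%. The members' windows were not independent draws, since the genes arose by duplication, and the matches were counted only.

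S100A8 and S100A9, which pair as calprotectin and are best known from neutrophils and stressed keratinocytes, had log2 fold changes of the same sign in each line, and of the pair S100A8 alone passed, in MCF10CA1h. The difference between both genes was not tested. In MCF10CA1h the normalized counts of S100A8 were 103, 83.5 and 97.2 in the control and 160, 456 and 414 in the CRISPR libraries. All CRISPR libraries were above all controls, and the difference was 3.28-fold (log2 fold change 1.72, SE 0.34, adjusted p = 0.00997, limma). S100A9 was at 1037, 532 and 1029 in the control and at 602, 1000 and 1413 in the CRISPR libraries there, with overlap and a log2 fold change of 0.19 (SE 0.32).

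In MCF10A, S100A8 was at 526, 68.3 and 44.6 in the control and at 1359, 478 and 766 in the CRISPR libraries. S100A9 was at 2531, 326 and 264 against 5521, 1361 and 3107. Replicate a was the highest of its group for both genes in both arms, and its control library overlapped the CRISPR group. The log2 fold changes of 2.74 (SE 0.84) for S100A8 and 2.25 (SE 0.84) for S100A9 did not pass (adjusted p = 0.132 and 0.207, limma), but passed with the block, as given above. Without MCF10A control replicate a they were 3.82 and 3.28 and both passed, as did S100A4 at 1.48. For all genes, calls went from 409 to 1418 in that fit.

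In MCF10AT1 the pair lay lower in the CRISPR line. S100A8 was at 142, 119 and 48.1 in the control and at 102, 28.3 and 3.68 in the CRISPR libraries, and S100A9 at 2410, 2257 and 1067 against 1323, 815 and 314. Both genes overlapped between the groups, and their log2 fold changes of -1.97 (SE 1.04) and -1.36 (SE 0.55) did not pass (adjusted p = 0.266 and 0.151, limma). With the block both passed (adjusted p = 0.0343 and 0.00323).

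The ratio of S100A8 to S100A9 within a library, a description with no test was 0.208, 0.210 and 0.169 in MCF10A control and 0.246, 0.351 and 0.246 in MCF10A CRISPR libraries. In MCF10AT1 it was 0.0591, 0.0529 and 0.0451 in the control and 0.0769, 0.0348 and 0.0117 in the CRISPR libraries. In MCF10CA1h it was 0.0993, 0.157 and 0.0945 against 0.266, 0.456 and 0.293. The CRISPR libraries had the higher ratio without overlap in MCF10A and MCF10CA1h, but not in MCF10AT1. Each gene keeps its own length across libraries, but short and longer RNAs shifted apart between the MCF10AT1 libraries, as given below. The part of that shift in the ratio was not tested, and the ratio says nothing of which gene was the more abundant.

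**Figure D3:**
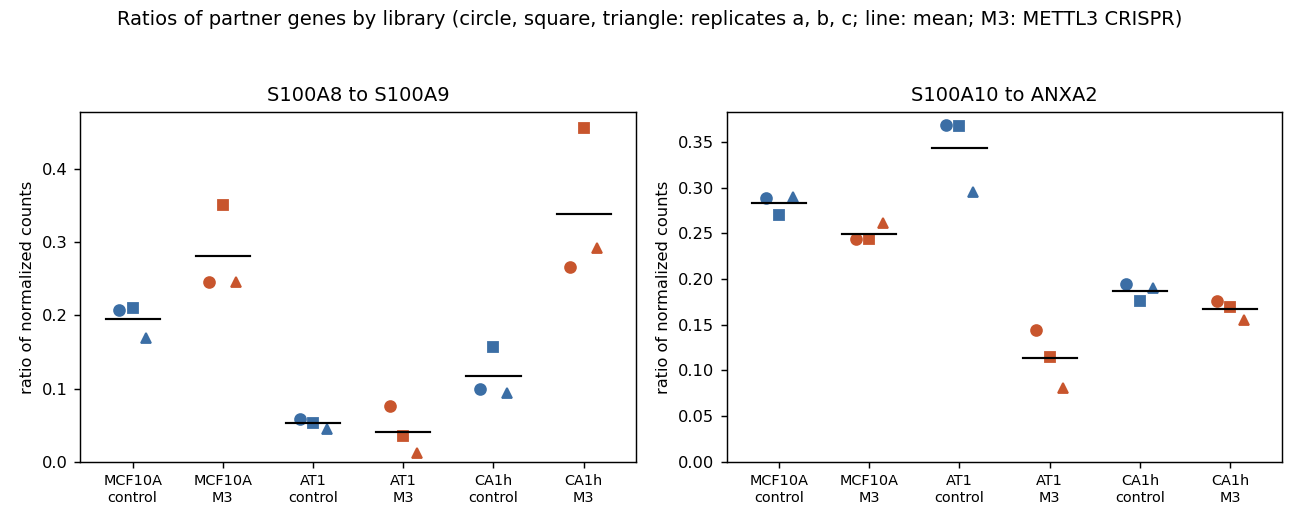
Ratio of the normalized counts of S100A8 to S100A9 (left) and of S100A10 to ANXA2 (right) in each library (vertical axes from 0), by group, with control libraries in blue, METTL3 CRISPR libraries in orange and the mean as a line. S100A10 to ANXA2 was between 0.296 and 0.368 in the MCF10AT1 control libraries and between 0.0807 and 0.145 in the CRISPR libraries.

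Myeloid RNA was looked for because it is rich in S100A8 and S100A9. Of 10 myeloid markers 7 had values, and FCGR3B, AIF1 and TYROBP had none, so their levels are not known here. The summed markers ranged from 640 to 696 in MCF10CA1h control and from 224 to 487 in its CRISPR libraries, from 147 to 294 against 66.5 to 151 in MCF10A, and from 552 to 1390 against 1753 to 2356 in MCF10AT1. CD14 was the one marker with a group mean of at least 50. The sums overlapped in MCF10A, rest mainly on CD14, and their part in the S100A8 values was not tested.

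S100A7 (psoriasin), another secreted member of inflamed epithelium, was barely expressed. Its normalized counts were 14.6, 4.91 and 0.93 in MCF10A control and 0.89, 1.21 and 1.62 in MCF10A CRISPR libraries, 2.67, 0 and 0.85 in MCF10AT1 control, and it was listed at 0 in the 3 CRISPR libraries of MCF10AT1. In MCF10CA1h it was at 9.08, 9.80 and 26.6 in the control and at 16.7, 57.9 and 33.0 in the CRISPR libraries, with overlap (log2 fold change 1.19, SE 0.54, adjusted p = 0.187, limma). Its close copy S100A7A reached at most 9.52, and how reads were split between the copies is not known, so both are uncertain.

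S100A10, which joins annexin A2 (ANXA2) in a complex that holds plasminogen activation at the cell surface, rose in MCF10CA1h. In the other lines its log2 fold changes were negative and did not pass. In MCF10CA1h it was at 16003, 14402 and 16998 in the control and at 23282, 23471 and 21465 in the CRISPR libraries. The groups did not overlap, and the difference was 1.44-fold (log2 fold change 0.53, SE 0.09, adjusted p = 0.00506, limma). In MCF10A it was at 24448, 24720 and 23966 against 11929, 17627 and 15064, also without overlap but with an adjusted p of 0.0739 (log2 fold change -0.73, SE 0.18), which became 0.0248 with the block. In MCF10AT1 the values of 14439, 28035 and 9043 and of 12505, 8879 and 3903 overlapped (log2 fold change -1.03, SE 0.53, adjusted p = 0.257, and 0.0284 with the block).

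ANXA2 itself rose in MCF10CA1h (log2 fold change 0.69, SE 0.09, adjusted p = 0.000999, limma), and did not pass in MCF10A (-0.55, SE 0.20) or MCF10AT1 (0.61, SE 0.43). The ratio of S100A10 to ANXA2 in a library was 0.368, 0.367 and 0.296 in MCF10AT1 control and 0.145, 0.115 and 0.0807 in MCF10AT1 CRISPR libraries. The ratio was lower in the CRISPR libraries there without overlap, but neither gene passed in MCF10AT1 and their difference was not tested. The limit given for the ratio of S100A8 to S100A9 holds here too. In MCF10CA1h the ratio was 0.195, 0.176 and 0.190 against 0.176, 0.169 and 0.155, and in MCF10A 0.289, 0.270 and 0.290 against 0.243, 0.243 and 0.261, each lower on average in the CRISPR line, by less than in MCF10AT1 and, in MCF10CA1h, with the groups touching.

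S100A16, a widely expressed member next to S100A14 on the map, differed from its neighbour. In MCF10CA1h it was at 15225, 13780 and 16543 in the control and at 18579, 20710 and 20573 in the CRISPR libraries, a rise of 1.32-fold (log2 fold change 0.40, SE 0.10, adjusted p = 0.0234, limma). The call was lost without MCF10CA1h control replicate a or b or CRISPR replicate b or c, with log2 fold changes between 0.33 and 0.46 over the 6 fits that leave out 1 library. In MCF10AT1 it was at 12811, 27979 and 10571 against 14108, 20594 and 15810, with overlap (log2 fold change 0.09, SE 0.40). In MCF10A it was at 21371, 19017 and 19649 against 13763, 14925 and 13378, without overlap but not past the threshold (log2 fold change -0.51, SE 0.14, adjusted p = 0.0993).

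S100A4, the member tied to motility through non-muscle myosin, was at 2539, 1357 and 994 in MCF10AT1 control and at 16906, 7865 and 953 in MCF10AT1 CRISPR libraries. CRISPR replicate c lay at the level of the lowest control, while the other two were above every control. The log2 fold change of 1.74 (SE 0.93) did not pass (adjusted p = 0.272, limma), but was 2.93 and passed without that library, and passed with the block (adjusted p = 0.0127). In MCF10A it was at 653, 357 and 227 against 871, 803 and 716, without overlap (log2 fold change 1.08, SE 0.35, adjusted p = 0.148). In MCF10CA1h the groups overlapped (416 to 598 against 391 to 621, log2 fold change -0.15, SE 0.20). S100A3 lies inside S100A4 on the same strand, so reads of their shared bases are uncertain.

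S100A6 (calcyclin), which binds CACYBP and annexins, was at 37518, 63980 and 20584 in MCF10AT1 control and at 107722, 83903 and 55184 in MCF10AT1 CRISPR libraries. The groups overlapped, and the log2 fold change of 1.11 (SE 0.47) did not pass (adjusted p = 0.173, limma, and 0.0343 with the block). In MCF10A it ranged from 40231 to 49328 against 34959 to 43199 (log2 fold change -0.15, SE 0.17), and in MCF10CA1h from 23200 to 30731 against 30601 to 47691 (log2 fold change 0.44, SE 0.16, adjusted p = 0.106).

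The members have short RNAs, and short RNAs moved together between the MCF10AT1 libraries. The canonical transcripts of the members are 408 to 1172 bases long. Among 1389 other genes with canonical transcripts under 1200 bases, the median deviation from the group mean was 0.57 in MCF10AT1 control replicate b, -0.68 in control replicate c, 0.21 in CRISPR replicate a and -0.32 in CRISPR replicate c, on the log2 scale. The members' medians in these libraries were 0.84, -0.77, 0.72 and -0.90, and those of 11057 longer genes were between -0.074 and 0.098. In MCF10A and MCF10CA1h libraries the short genes stayed between -0.13 and 0.25. Short genes also had a median log2 fold change of 0.38 with METTL3 CRISPR in MCF10AT1, where the members' was -1.36.

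**Figure D4:**
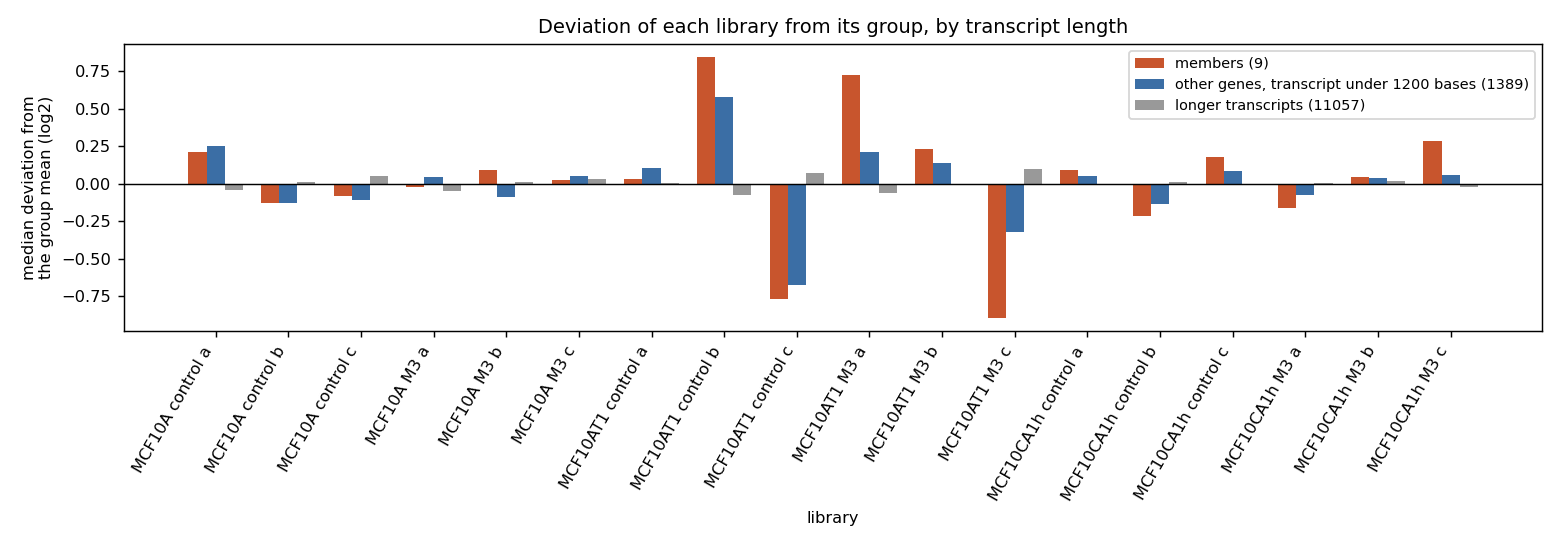
Median deviation of each library from the mean of its group (vertical axis, log2) for 9 members with a mean of at least 50, for 1389 other genes with transcripts under 1200 bases and for 11057 genes with longer ones, with the 18 libraries on the horizontal axis. The 4 largest bars of the members are in MCF10AT1 (control b and c, CRISPR a and c), and the 3 largest of the short genes are among the same libraries.

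A fit that centred each library within 10 classes of transcript length, added after these values were seen, called 5 members in MCF10AT1, all lower (S100A2, S100A9, S100A10, S100A14 and S100P), and 6 with the block, all lower. For all genes it called 2707 of 16050 tested, and 3878 with the block. S100A14, S100A2 and S100P then had log2 fold changes of -7.69, -5.02 and -3.23. S100A4 and S100A6, which the block had called higher, were not called in that fit with the block (log2 fold changes 1.31 and 0.69, adjusted p = 0.123 and 0.0616, limma). The 3 calls of the comparison as first given were thus kept, and the calls of S100A4 and S100A6 were not.

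The METTL3 CRISPR effect on the members differed between lines in 5 cases against MCF10A and in 4 against MCF10CA1h, as tested by interaction contrasts in a fit of all 18 libraries. Against MCF10A, the effect in MCF10AT1 was lower for S100A2, S100A8, S100A9, S100A14 and S100P, 5 of 10 tested, where 21.6% of all genes differed. Between MCF10CA1h and MCF10AT1, the effect was higher in MCF10CA1h for S100A2, S100A10, S100A14 and S100P, 4 of 10, where 18.2% of all genes differed. Between MCF10CA1h and MCF10A none of 10 passed, where 5.34% of all genes differed. An unadjusted p under 0.05 was reached there by 3 members and by 2775 of 15897 genes. The spread behind that contrast came from all lines, MCF10AT1 among them. The block gave 2 calls for that contrast, S100A10 (higher in MCF10CA1h, adjusted p = 0.0359, limma) and S100A9 (-2.05, adjusted p = 0.0473). It also gave 6 calls in place of 5 between MCF10AT1 and MCF10A, adding S100A6 (adjusted p = 0.0113), and 6 in place of 4 between MCF10CA1h and MCF10AT1, adding S100A8 and S100A4 (adjusted p = 0.00659 and 0.0433). For all genes the block called 1283 of 15897 (MCF10CA1h and MCF10A), 4601 (MCF10AT1 and MCF10A) and 3948 (MCF10CA1h and MCF10AT1). The largest differences were those of S100A14, at -6.87 (SE 0.42) and 7.27 (SE 0.42), and of S100A2, at -4.25 (SE 0.64) and 5.16 (SE 0.64). The call of S100A10 was lost in 10 of the 12 fits that left out 1 library, with values between 1.08 and 1.94. Those of S100A8 and S100A9 were lost without MCF10A control replicate c (-4.02 and -3.02), and that of S100A9 also without MCF10A control replicate b (-3.17) or CRISPR replicate a (-3.14).

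Among the 9 control libraries, S100A4 was the member that passed in 2 of the 3 comparisons of lines. It was higher in MCF10AT1 than in MCF10A, at 2539, 1357 and 994 against 653, 357 and 227, without overlap (4.01-fold, log2 fold change 2.0, SE 0.43, adjusted p = 0.0111, limma). It was lower in MCF10CA1h, at 579, 416 and 598, than in MCF10AT1 (log2 fold change -1.52, SE 0.43, adjusted p = 0.0322), a call lost in 4 of the 6 fits that left out 1 library (without MCF10AT1 control replicate a, -1.15, or any MCF10CA1h control, -1.62 to -1.36). Between MCF10CA1h and MCF10A the difference was within the spread (0.48, SE 0.43). S100P was higher in MCF10AT1 than in MCF10A by 1.18 (SE 0.43, adjusted p = 0.0633) and S100A14 differed by -0.93 between MCF10CA1h and MCF10A (SE 0.35, adjusted p = 0.0594), neither of which passed. S100A4 was the 1 member of 9 that passed between MCF10AT1 and MCF10A, where 28.1% of all genes passed, 13.3% higher and 14.7% lower. It was also the 1 member of 9 between MCF10CA1h and MCF10AT1, where 21.8% passed, 11% higher and 10.8% lower. None of 9 passed between MCF10CA1h and MCF10A, where 37.8% of all genes did, 19% higher and 18.8% lower. An unadjusted p under 0.05 was reached there by 1 member and by 7527 of 15652 genes. The spread in that fit came from all 9 controls, those of MCF10AT1 among them. By the normalized counts given above, S100A2, S100A6, S100A10, S100A14 and S100A16 were lower in control MCF10CA1h than in MCF10A without overlap. The share of all genes without such overlap was not counted.

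Centring by transcript length kept both calls of S100A4 and added calls of other members. Short genes had a median log2 difference of 0.68 between control MCF10AT1 and MCF10A and of 0.51 between control MCF10CA1h and MCF10A. With libraries centred by length, 5 members passed between MCF10AT1 and MCF10A (S100A4 higher and S100A2, S100A6, S100A10 and S100A16 lower) and 5 between MCF10CA1h and MCF10A, all lower (S100A2, S100A6, S100A10, S100A14 and S100A16). The log2 fold changes of these 5 in MCF10CA1h lay between -1.25 (S100A14) and -0.72 (S100A16). With this centring, 4715 of 15652 genes tested passed between MCF10AT1 and MCF10A, and 6633 between MCF10CA1h and MCF10A. Single libraries also bore on the counts. Without MCF10AT1 control replicate c, 4 members passed between MCF10CA1h and MCF10AT1 in place of 1, and without MCF10AT1 control replicate b, 4 passed between MCF10AT1 and MCF10A. For all genes, calls went from 3410 to 5593 in the former. Over the 6 fits that left out 1 library of the latter comparison they ranged from 1661 to 8142, with 4391 in the full fit. The lowest came without MCF10A control replicate b and the highest without MCF10AT1 control replicate c. The count without MCF10AT1 control replicate b lay between these and is not given here, so it cannot be set beside the 4 members.

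On the map, 9 of the members lie on chromosome 1 and S100P on chromosome 4 (hg38, GENCODE). S100A10 lies apart at chr1:151982915-151993859, and the other 8 from S100A9 (chr1:153357854-153361023) to S100A14 (chr1:153614255-153616986) have 3 exons in the canonical transcript (4 in S100A14) and are transcribed from the minus strand but for S100A9. S100A14, the next gene after S100A16, fell in MCF10AT1 where the groups of S100A16 overlapped. Of 12 neighbouring genes of other families in the table, 8 were tested in MCF10AT1 and none passed, beside 13% of all genes. An unadjusted p under 0.05 was reached by 1 of these and by 4425 of 16050 genes. Of the 9 neighbours tested in MCF10CA1h, 1 rose, beside 7.91% of all genes (PRR9, log2 fold change 2.28, SE 0.53, adjusted p = 0.0195, limma).

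**Figure D5:**
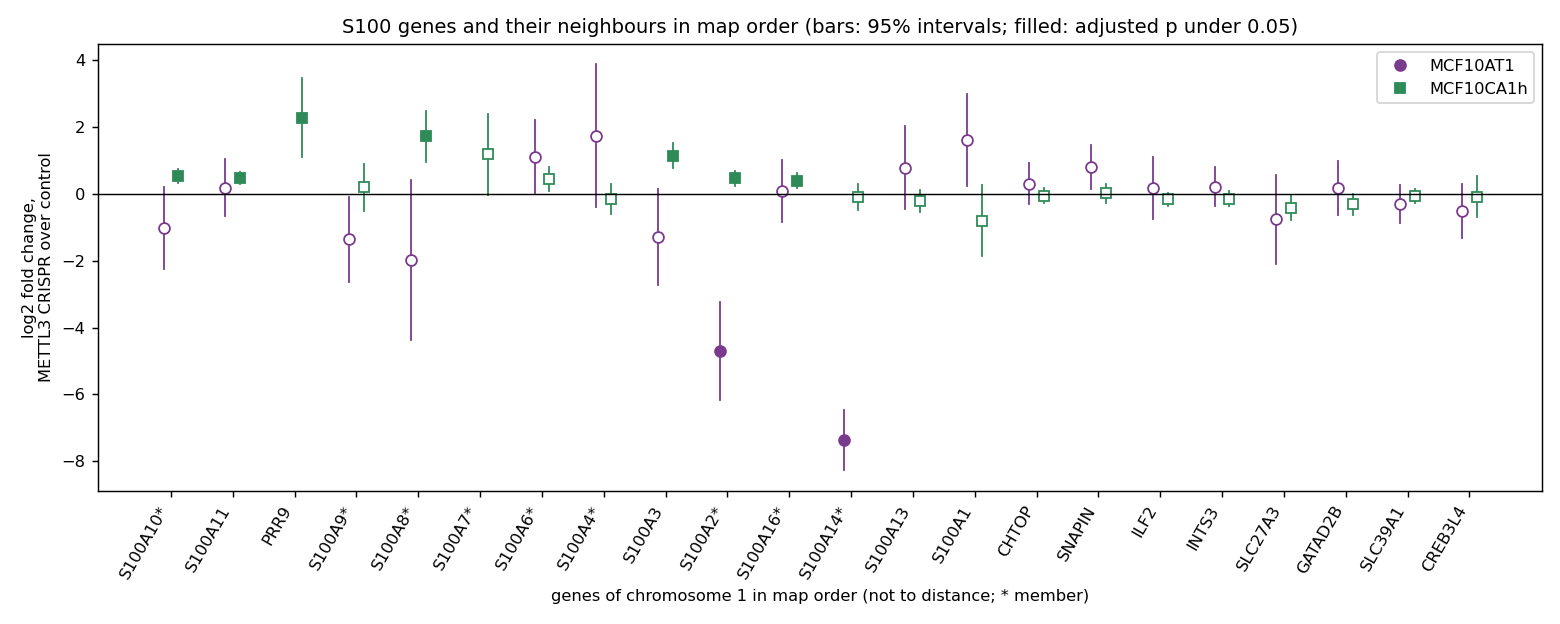
Log2 fold change between METTL3 CRISPR and control libraries (vertical axis) for S100 genes (members starred) and their neighbours in the order of chromosome 1 (horizontal axis, not to distance), for MCF10AT1 (circles) and MCF10CA1h (squares), with 95% intervals and filled points where the adjusted p was under 0.05. In MCF10AT1 the filled points are S100A2 at -4.70 and S100A14 at -7.36, with S100A16 between them at 0.09.

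Of 11 other S100 genes 8 were in the table and 4 were tested in each line (S100A1, S100A3, S100A11 and S100A13). None passed in MCF10A or MCF10AT1, beside 2.65% and 13% of all genes. In each, 1 had an unadjusted p under 0.05, as did 2839 of 15416 and 4425 of 16050 genes. In MCF10CA1h 2 of 4 passed, both higher, S100A3 (log2 fold change 1.14, SE 0.17, adjusted p = 0.00231, limma) and S100A11 (0.48, SE 0.08, adjusted p = 0.00505). Of all genes, 7.91% were higher there. S100A3 was at 319, 239 and 306 in the control and at 594, 549 and 764 in the CRISPR libraries, without overlap. S100A11, an annexin A1 partner, was at 20089, 18309 and 20164 against 26495, 27537 and 27302, also without overlap. Between controls, 1 of the 4 passed in each comparison. S100A11 was lower in MCF10AT1 than in MCF10A, where 28.1% of all genes passed. S100A3, which lies inside S100A4, was lower in MCF10CA1h than in MCF10A and MCF10AT1, where 37.8% and 21.8% passed.

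Among 20 receptors and partners of S100 proteins, 19 were tested. The receptors AGER and TLR4 did not pass in any line, with log2 fold changes of 0.34, 0.58 and -0.51 for AGER and of -0.58, 1.82 and 0.10 for TLR4 in MCF10A, MCF10AT1 and MCF10CA1h. In MCF10A 2 rose (NPTN and PLAT), in MCF10AT1 3 rose (BSG, CD36 and PLAT), and in MCF10CA1h 2 rose (ANXA2 and PLAU) and 2 fell (CD36 and FABP5), beside 2.65%, 13% and 12.8% of all genes tested in these lines. BSG, known as a receptor of S100A9, and CD36, known to take up fatty acids and to bind the S100A8 and S100A9 pair, changed by log2 1.5 (SE 0.32, adjusted p = 0.0167, limma) and 7.74 (SE 0.84, adjusted p = 0.000721) in MCF10AT1. CD36 changed by -2.44 (SE 0.33, adjusted p = 0.00127) in MCF10CA1h. CACYBP, the partner of S100A6, did not pass in any line.

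Some cell type markers also changed in MCF10AT1, in both directions. The basal keratins KRT5, KRT14 and KRT17 fell, while TP63 (log2 fold change 1.05, SE 0.64) and ITGB4 (1.5, SE 0.53) did not pass. KRT5 was at between 36863 and 48735 in the control and between 824 and 5540 in the CRISPR libraries (log2 fold change -4.24, SE 0.61, adjusted p = 0.00289, limma). The fibroblast markers COL3A1 and THY1 rose, 2 of 5 tested, and the summed list of 8 ranged from 427 to 659 in the control and from 2703 to 4509 in the CRISPR libraries. In MCF10CA1h the basal markers KRT5, KRT14, KRT17 and ITGB4 rose, beside the rise of S100A2 there, and TP63 did not pass (-0.39, SE 0.18). In the same libraries the fibroblast marker DCN rose and COL3A1 fell, with list sums of 1270 to 1603 in the control and 2299 to 2361 in the CRISPR libraries, and the epithelial marker CLDN4 fell (log2 fold change -1.16, SE 0.29, adjusted p = 0.0261, limma). In MCF10A KRT5 rose and KRT14, KRT17, TP63 and ITGB4 did not pass. Cornified envelope genes IVL, SPRR1B and TGM1 fell in MCF10AT1, 3 of 3 tested, with list sums of 613 to 943 against 15.9 to 17.2, while in MCF10A 1 rose (SPRR1B) and 1 fell (IVL), and in MCF10CA1h 1 rose (IVL). Of the luminal markers none passed in any line, with 1 at an unadjusted p under 0.05 in each. Among the endothelial markers 1 passed, PECAM1, which fell in MCF10CA1h. In MCF10A, 3 of 3 endothelial markers tested reached that unadjusted level, with a median log2 fold change of -2.47. Sums of the whole endothelial list there were 56.1 to 237 in the control and 339 to 536 in the CRISPR libraries. The 2 fibroblast markers tested in MCF10A also reached it and did not pass, with list sums of 1083 to 1970 against 1411 to 4249. That unadjusted level was reached by 2839 of 15416 genes in MCF10A, 4425 of 16050 in MCF10AT1 and 4230 of 15127 in MCF10CA1h. Of all genes tested, 7.07% were called higher and 5.96% lower in MCF10AT1. These shares were 1.16% and 1.49% in MCF10A, and 7.91% and 4.85% in MCF10CA1h. Fewer cells of a type and less RNA per cell cannot be told apart in bulk RNA, and the part of these markers in the members' changes was not tested.

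The genes whose log2 values followed a member most closely over the 18 libraries were searched among 12435 genes with a mean of at least 50 that are not S100 genes. For S100A2 they were ANXA8 (Pearson r = 0.982) and SFN (0.978), for S100A14 AP1M2 (0.989) and LAD1 (0.987), and for S100P AVPI1 (0.914) and AZGP1 (0.894). AP1M2, an epithelial adaptor subunit, had means of 2150 in MCF10AT1 control and 3.90 in MCF10AT1 CRISPR libraries, and ANXA8 6046 and 96.7. For S100A4 they were MTERF4 (0.943) and PHPT1 (0.901), and for S100A6 CHMP2A (0.94) and RTL8C (0.925). For S100A8 they were STARD5 (0.862) and ATP1B3 (0.858), and for S100A10 DIAPH1 (0.889) and MACO1 (0.885). For S100A9 they were APOBEC3C (0.887) and DTX2P1-UPK3BP1-PMS2P11 (0.828), and for S100A16 RAB32 (0.871) and UPP1 (0.826). For S100A7, which was barely expressed, they were UBE2N (0.895) and CDA (0.876). Among the members, S100A2 and S100A14 were the closest pair (0.952), then S100A2 and S100A10 (0.851), S100A14 and S100P (0.757) and S100A8 and S100A9 (0.748). These correlations are descriptions over libraries that share 6 groups and the length pattern above, so they carry no p.

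METTL3 methylates adenosines in sequences such as GGACT, and the members' transcripts were searched for it because METTL3 was the CRISPR target. Methylation itself is not measured in these files. The canonical GENCODE transcripts of 5 of the 10 members held no GGACT (S100A6, S100A7, S100A8, S100A9 and S100A10), as did 8.93% of 13002 protein-coding genes tested and 38.7% of the 1153 of these with transcripts under 1200 bases. S100A2 and S100P held 2 each, and S100A4, S100A14 and S100A16 held 1 each. The 3 members that fell in MCF10AT1 held at least 1, and so did S100A4 and S100A16, which did not fall. In S100A2, S100A4 and S100P a site lay at a like place of the coding sequence, shown here with GGACT in capitals and the position of its A counted from the first base of the transcript.
S100A2, base 564: cagcaggtGGACTtccaggag
S100A4, base 281: aacgaggtGGACTtccaagag
S100P, base 264: gcccaggtGGACTtcagtgag

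The other sites lay in the 3′ UTR of S100A2, S100A14 and S100A16 and, a second time, in the coding sequence of S100P.
S100A2, base 690: tgggcccaGGACTgttgatgc
S100A14, base 637: ggctcaggGGACTggttgggc
S100A16, base 1018: actttcagGGACTtccctcca
S100P, base 334: agaaggcaGGACTcaaatgat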

How the data were processed

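RNA of 18 libraries, 3 in each of 6 groups taken from the sample titles, was measured by paired-end sequencing. Reads were quantified by the authors against hg38 transcripts with kallisto 0.46.1, and they normalized gene values with DESeq2 1.26.0 in R 4.1.1. The annotation release was not given in the sources used here, and the sources name both polyA RNA and a stranded total RNA kit with depletion of ribosomal RNA. The deposited values are normalized counts, a signal scaled between libraries but neither read counts nor values per length, so levels are not compared between genes. Only 37.8% to 55.3% of low values lay within 0.1 of whole multiples of each library's commonest low value, so reads were not recovered and counting error has no interval here. Of the deposited table, 35933 lines hold a gene with values, and 24646 lines hold neither a gene nor a full set of values (7 with a lone number).

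Differences were fitted in R 4.3.3 with limma 3.58.1 (eBayes with a trend) on log2(normalized count + 1) over all genes with a mean of at least 10 in the libraries of the fit, with Benjamini-Hochberg adjustment over all genes tested and a threshold of 0.05. One fit was made per line, one for the 9 controls together, and one over all 18 libraries for the interaction contrasts. All p-values are two-sided. The fit was tested on simulated data. Alternatives were other pseudocounts (0.5 and 5), filters, scalings and thresholds, no trend, a joint fit, the replicate letter as a block, each library left out in turn, and, added after the data were seen, centring by transcript length in 10 classes. The replicate letters come from the titles. Deviations of same-lettered control and CRISPR libraries correlated at 0.221, 0.2 and 0.116 in MCF10A and at 0.11, 0.289 and 0.477 in MCF10AT1, where letters were taken to pair libraries, but at -0.0112, 0.0173 and 0.046 in MCF10CA1h. Unlike-lettered pairs ranged from -0.17 to 0.00868 in MCF10A, from -0.413 to 0.251 in MCF10AT1 and from -0.119 to 0.104 in MCF10CA1h.

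Positions and transcripts came from GENCODE (hg38), promoters from RefSeq (GRCh38.p14). Python 3.11.15 (SciPy 1.17.1, NumPy 2.4.6, pandas 2.3.3) gave the other values and matplotlib 3.10.9 the figures. Members and lists were chosen with earlier results of these data known. Named are the 10 members, METTL3, other S100 genes, neighbours that passed between METTL3 CRISPR and control in a line, direct partners of a member, listed markers by count, and the 2 genes most like each member over libraries. Neighbours that passed between controls or in an interaction contrast are not named. One basal marker, and the counts and sums that include it, are not reported here.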

Additional observations from a re-analysis of the deposited data

Results flagged for a closer look

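The METTL3 CRISPR effect differed between lines by an interaction contrast in 9 cases. Between MCF10AT1 and MCF10A the differences were -4.25 for S100A2, -4.71 for S100A8, -3.61 for S100A9, -6.87 for S100A14 and -2.42 for S100P, each lower in MCF10AT1, on the log2 scale. Between MCF10CA1h and MCF10AT1 they were 5.16 for S100A2, 1.55 for S100A10, 7.27 for S100A14 and 2.50 for S100P, each higher in MCF10CA1h. Both sets rest on the same 6 MCF10AT1 libraries. No group was large enough to look for single outlying libraries in it.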

How the results depend on the processing

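With the replicate letter as a block, calls rose from 0 to 4 members and from 409 to 1172 genes in MCF10A, from 3 to 8 members and from 2091 to 3939 genes in MCF10AT1, and, between the effects in MCF10CA1h and MCF10A, from 0 to 2 members and from 849 to 1283 genes. In MCF10CA1h, where letters did not pair libraries, the block gave 5 members in place of 4, adding S100A6, and 1876 genes in place of 1929. With transcript length centring and the block, added after the data were seen, they were 4 members and 1310 genes in MCF10A, 6 and 3878 in MCF10AT1, 3 and 1508 between the effects in MCF10CA1h and MCF10A, and 7 members in place of 4 between those in MCF10CA1h and MCF10AT1. In the last of these, 4167 genes passed in place of 2890. Centring alone gave 5 members in MCF10AT1, 5 (with or without the block) in each control line against MCF10A in place of 1 and 0, and 2 in place of 1 between control MCF10CA1h and MCF10AT1. For all genes centring alone gave 2707 in MCF10AT1. Between controls it gave 4715 (MCF10AT1 and MCF10A), 6633 (MCF10CA1h and MCF10A) and 4414 (MCF10CA1h and MCF10AT1).

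Without a trend 237 genes passed in MCF10A, and 1 member and 1123 genes in MCF10CA1h. Without a filter on low values 117 genes passed in MCF10A, 1 member in MCF10AT1, 0 members and 606 genes in MCF10CA1h in place of 4 and 1929, 2698 genes in place of 4391 between control MCF10AT1 and MCF10A, and 0 members between control MCF10CA1h and MCF10AT1. More genes (35933) were then tested, and 1399 passed in MCF10AT1 and 2988 between control MCF10CA1h and MCF10AT1. The joint fit of 18 libraries gave 5 members and 5146 genes in MCF10AT1, 0 members and 248 genes in MCF10CA1h, and 2, 1 and 3 members for control MCF10AT1 against MCF10A, MCF10CA1h against MCF10A and MCF10CA1h against MCF10AT1. Equal library sums gave 3, 1 and 2 there. For all genes the joint fit gave 6096, 7094 and 4551 between these controls, and equal sums gave 3708, 5565 and 3293. At an adjusted p under 0.01, 45 genes passed in MCF10A, 1010 in MCF10AT1, and 2 members and 799 genes in MCF10CA1h, and where a change of 1 or more on the log2 scale was asked for too, 1 member and 669 genes passed in MCF10CA1h. The causes were not tested beyond what each alternative changes.

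The sign turned for S100A16 in MCF10AT1 (0.09, but -0.070 with equal sums and -0.23 with centring, with or without the block), for S100A16 between control MCF10CA1h and MCF10AT1 (-0.04, but 0.072 and 0.11) and for S100P between the effects in MCF10CA1h and MCF10A (0.08, but -0.069 with equal sums), none of them called. Over the settings other than left-out libraries, 589 member fold changes kept direction and side of the threshold, 64 gained a call, 16 lost one and 7 turned sign.

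Leaving out 1 library at a time gave 0 to 3 members and 52 to 1418 genes in MCF10A, 1020 to 2439 genes in MCF10AT1 and 2 to 4 members and 1089 to 1785 genes in MCF10CA1h. Between controls it gave 1 to 4 members and 1661 to 8142 genes (MCF10AT1 against MCF10A), 0 to 1 and 3675 to 5714 (MCF10CA1h against MCF10A), and 0 to 4 and 1608 to 5593 (MCF10CA1h against MCF10AT1). Between effects it gave 3 to 7 members and 2791 to 5077 genes (MCF10AT1 and MCF10A). For MCF10CA1h and MCF10A it gave 0 to 1 members and 470 to 1092 genes. Uncalled members whose sign turned ranged in MCF10AT1 from -0.19 to 0.51 (S100A16), and in MCF10CA1h from -0.12 to 0.52 (S100A9) and from -0.21 to 0.12 (S100A14). Between control MCF10AT1 and MCF10A they ranged from -0.66 to 0.16 (S100A6), from -1.01 to 0.75 (S100A8) and from -0.54 to 0.15 (S100A14). Between control MCF10CA1h and MCF10A they ranged from -1.01 to 0.76 (S100A8), from -0.13 to 1.5 (S100A9) and from -0.20 to 0.14 (S100P). Between control MCF10CA1h and MCF10AT1 they ranged from -0.18 to 0.91 (S100A2), from -0.46 to 0.31 (S100A8), from -0.35 to 0.46 (S100A10) and from -0.32 to 0.38 (S100A16). Between effects they ranged from -0.22 to 1.85 (S100A4), from -0.040 to 1.19 (S100A7) and from -0.68 to 0.18 (S100A10) for MCF10AT1 and MCF10A, from -0.14 to 0.21 (S100P) for MCF10CA1h and MCF10A, and from -0.12 to 0.58 (S100A16) for MCF10CA1h and MCF10AT1.

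The depth behind a gene is unknown. S100A7, and S100A8 in MCF10AT1, lie near the low end of the values, where the pseudocount shrinks fold changes.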
